A study of Mus musculus with 6 samples.

Results

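The genes described here were lower in Ebf1-deficient pre-pro-B cells 24 h after Ebf1 was put back. Each had a probe with at least 4-fold lower mean signal, though the true fall is uncertain where that probe was dim. They were chosen by their measured values. A named gene was taken when a probe carried the scanner software's flag for a signal well above background on each of the 3 arrays of cells with the control virus. Its mean log2 signal had to be at least 2 lower on the 3 arrays of cells with the Ebf1 virus, and every Ebf1 array had to lie below every control array. Probes in the immunoglobulin heavy chain region of chromosome 12 were left out, as were names starting Ccr, Itg, Gata, Il2, Kcn, Calm, Fcgr, Rasgrp or Txk. This left 72 genes out of 21221 named genes on the arrays, and out of 11052 that were above background on every control array with the same exclusions (0.651%). Because the fall itself chose these genes, their differences between the groups are given as a description without a test.

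Both groups were pre-pro-B cells of genotype Ebf1 -/-, as the sample titles write it (the genotype label has Ebf -/-), which therefore lack the endogenous factor. They were grown over OP9 stromal cells in medium with Flt3 ligand, stem cell factor and interleukin 7, at 10 ng/ml for each cytokine. Control cells (n = 3 arrays) received the retroviral vector pMYs-IRES-EGFP, which gives EGFP alone. The other cells (n = 3 arrays) received pMYs with Ebf1beta, the name the sample titles give to the insert, and EGFP. EGFP-positive cells were sorted 24 h after infection, and Ebf1 was driven by the vector, not by its own promoter. The labels do not say whether the replicates came from separate cultures or animals, so errors and p-values measure only the spread between these samples, which may be technical.

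Ebf1 is a transcription factor that commits progenitors to becoming B cells, and it both switches on B cell genes and limits genes of other lineages. Mice without it do not make B cells beyond the pre-pro-B cell, and in culture such cells keep the ability to give rise to other blood lineages. Genes that go down when Ebf1 returns are therefore of interest as genes that the arrested progenitor expressed at a higher level. Later B lineage cells were not measured here.

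The 75th percentile signal was 240 to 366 on control arrays and 316 to 364 on Ebf1 arrays, the median signal was 7.62 to 13.1 against 12.3 to 19.7, and 46.6% to 50.5% against 50.5% to 60.1% of features were well above background. The Ebf1 probe above background on all arrays differed by -0.15 ± 0.21 (SE, limma adjusted p = 0.646), and where it lies relative to the insert was not determined, so it does not check the labels. Vpreb1 and Igll1, which encode the surrogate light chain and are known Ebf1 targets, differed in the direction of the labels, by 8.20 ± 0.15 (SE, limma adjusted p = 3.48e-07) and 11.00 ± 0.14 (SE, limma adjusted p = 5.88e-08). Over all 20452 probes tested, limma called 2085 lower (10.2%) and 2349 higher (11.5%) with the Ebf1 virus, so 47.0% of calls were lower. With each array scaled on its median this share was 67.8%, since that scaling moved every difference by -0.31 on the log2 scale. The count of lower probes was 1008 without control array 2, 1017 without control array 3 and 1362 without Ebf1 array 2.

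All values below are log2 signals relative to the 75th percentile of the same array, so 0 marks a signal at that percentile and a difference of -2 is a 4-fold fall. The 72 differences ran from -5.31 to -2.01 with a median of -2.31, whereas the median over all named genes tested was -0.07. Most lay close to the threshold, since 44 genes were between 2 and 2.5 lower. In bulk RNA of this kind, fewer cells of a type and less RNA per cell cannot be told apart. Values 8-fold or more lower were found for 6 genes. Filip1 was above background on all 6 arrays, and Hs3st1 on 1 Ebf1 array only, so the size of its fall is uncertain. The other 4 had a representing probe above background on no Ebf1 array, and their fitted values are therefore not sizes. The same rule turned round, with genes at least 2 higher, took 476 of 11877 genes (4.01%), of which 258 were 8-fold or more higher and 226 were above background on no control array. Genes past the rule were thus fewer on the lower side than on the higher side at this scaling. Where the rule ended, Hmga2 (-2.01), Lipt2 (-2.02) and Tuba8 (-2.02) were just inside, while Enam (-1.97), Ahr (-1.96) and Cacnb3 (-1.95) were just outside. Ahr, for example, stood at 1.03, 1.30 and 1.08 with the control virus and at -0.98, -0.78 and -0.71 with the Ebf1 virus, again without overlap between the groups. Cacnb3 stood at -0.39, -0.22 and -0.15 against -2.56, -2.17 and -1.89, and Enam at -2.12, -2.70 and -2.48 against -4.73, -4.34 and -4.14.

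**Figure D1:**
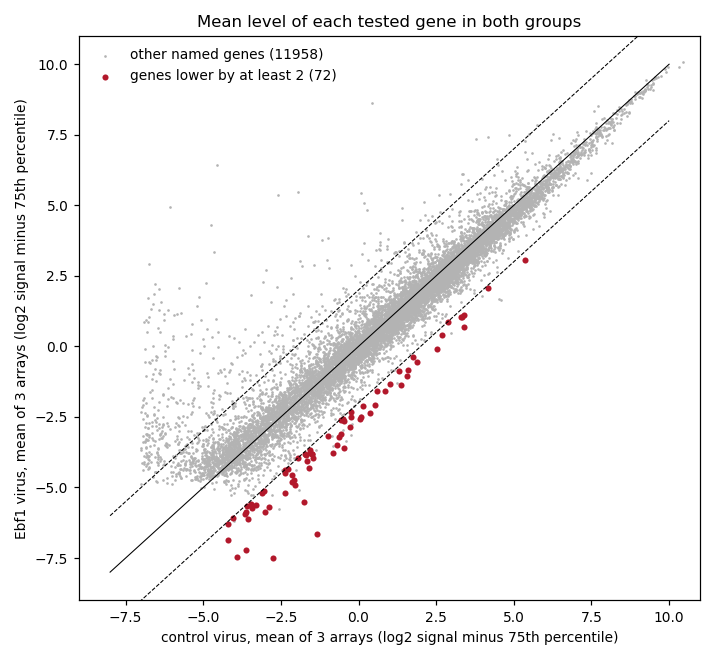
Mean log2 signal relative to the array's 75th percentile with the control virus (horizontal) and with the Ebf1 virus (vertical), each the mean of 3 arrays, for every tested named gene. Red points are the 72 genes and grey points all other named genes, including those left out by name or position; the solid line marks equal levels and the dashed lines a difference of 2 either way, and the red points lie along or under the lower dashed line from a control level of -4.21 to 5.36.

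Most of the probes gave weak signals. Their control signal had a median of -1.40, against 0.47 over the probes of all named genes above background on the control arrays. With the Ebf1 virus, the representing probes of 46 of the 72 genes were still above background on all 3 arrays, 5 on 2 arrays, 8 on 1 array and 13 on none. For these 13 probes the true level is not known, and only an approximate lower bound on the fall is given, from the lowest signal above background on each Ebf1 array. Some dim values lay above that signal, such as that of Gpr65 on Ebf1 array 3, so it is not a strict detection limit. The true falls could therefore be smaller than the bounds given here and below. These bounds ran from 1.99-fold to 14.5-fold with a median of 3.14-fold, and only 4 of the 13 reached 4-fold. A second background correction, normexp with an offset of 50, compresses differences near background. It gave all 72 genes a negative difference, from -2.5 to -0.26 with a median of -1.21. Under it 41 genes were at least 1 lower and 11 were at least 2 lower: Cd244a, Pdcd1, Arhgap6, Tph1, Drc1, Htra1, Rinl, Il1rl2, Il18r1, Slc14a1 and Dusp7. The median normexp difference was -1.5 for the 46 genes whose probe was measured on every array, -0.77 for the 13 whose probe was measured on 1 or 2 Ebf1 arrays and -0.41 for the 13 whose probe was dim on all of them.

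**Figure D2:**
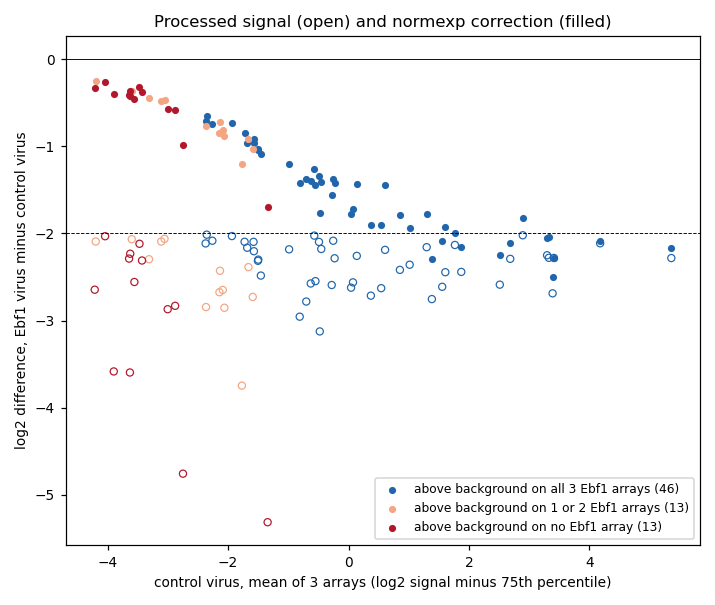
Log2 difference (Ebf1 virus minus control virus) of each of the 72 genes against its control level, from the processed signal (open circles) and after normexp correction (filled circles), coloured by the number of Ebf1 arrays on which the probe was above background. Open circles all lie at or below -2 because that chose the genes; filled circles rise towards 0 as the control level falls, from -2.16 for Drc1, at a control level of 5.36, to -0.26 for Oxr1 and Pcp4.

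The promoters of 4 of the genes are shown. The probe representing each was above background on all 6 arrays and lay at least 1.9 lower with either background correction. Each gene also stands for a group described below. Cd244a and Pdcd1 encode inhibitory or co-stimulatory lymphocyte receptors, Il1rl2 a cytokine receptor chain and Nr1h4 a nuclear receptor. The sequences are the 250 bases before the start of each gene, from RefSeq on GRCm38.p6, at chr1:171558943-171559192, plus strand, chr1:94052554-94052803, minus strand, chr1:40324339-40324588, plus strand and chr10:89506659-89506908, minus strand. They are written 5′ to 3′ on the gene's strand, with every match to the motifs listed after them in capitals, so a match to the other strand appears as its reverse complement.
Cd244a: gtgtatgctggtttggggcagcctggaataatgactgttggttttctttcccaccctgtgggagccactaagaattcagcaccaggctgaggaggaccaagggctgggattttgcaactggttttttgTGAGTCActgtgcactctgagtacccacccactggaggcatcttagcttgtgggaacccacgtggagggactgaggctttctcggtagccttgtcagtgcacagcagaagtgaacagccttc
Pdcd1: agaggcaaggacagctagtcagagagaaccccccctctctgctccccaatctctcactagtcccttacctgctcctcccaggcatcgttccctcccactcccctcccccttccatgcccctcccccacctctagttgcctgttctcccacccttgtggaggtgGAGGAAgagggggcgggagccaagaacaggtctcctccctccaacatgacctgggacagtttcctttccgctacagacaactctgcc
Il1rl2: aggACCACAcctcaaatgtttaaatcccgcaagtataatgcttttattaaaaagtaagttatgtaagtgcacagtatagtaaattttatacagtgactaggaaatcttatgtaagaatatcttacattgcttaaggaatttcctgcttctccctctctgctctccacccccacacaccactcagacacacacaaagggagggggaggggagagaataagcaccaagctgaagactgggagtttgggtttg
Nr1h4: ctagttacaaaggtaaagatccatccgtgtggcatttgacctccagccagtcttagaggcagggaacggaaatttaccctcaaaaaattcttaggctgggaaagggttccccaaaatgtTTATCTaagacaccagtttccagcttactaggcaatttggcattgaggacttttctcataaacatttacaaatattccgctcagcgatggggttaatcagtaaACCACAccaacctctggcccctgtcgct
The capitals mark an AP-1 type motif in Cd244a, an Ets and PU.1 type motif in Pdcd1, a Runx type motif in Il1rl2, and a GATA type and a Runx type motif in Nr1h4. None of the 4 stretches holds the palindrome of the Ebf family, TCCC and GGGA with any 2 bases between them.

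Promoters of 300 bases, 250 before the start and 50 after it, were found for 60 of the 72 genes, 78 promoters in all, and were searched on both strands beside all 32851 promoters of the table. The Ebf palindrome was in 0 of the 78, a count that allows a share of up to 3.85%, and in 0.904% of all promoters. TGTGGT, the Runx motif, was in 24.4% against 16.8%, and GAGGAA, bound by Ets factors and PU.1, in 32.1% against 28.3%. CAGCTG, an E protein motif, was in 16.7% against 16.3%, AGATAA, the GATA motif, in 7.69% against 11.2%, and TGACTCA, the AP-1 motif, in 6.41% against 5.20%. In the 250 bases before the start alone the shares were 17.9% against 14% for Runx, 25.6% against 23.3% for Ets and PU.1, and 11.5% against 13% for the E protein motif. There they were 6.41% against 9.99% for GATA and 6.41% against 4.46% for AP-1, and the Ebf palindrome was again in 0 of the 78, against 0.779%. These are counts of letters in a short window, and promoters of the same gene can overlap. Overlapping promoters of 4930437M23Rik, for example, hold the same Runx match and were each counted. Gm6460 and 4933402N22Rik, both on chromosome 5, each hold a GAGGAA match at position 38 from the start. Whether their promoters are similar sequences was not determined. The counts do not show where any factor was bound.

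Receptors of lymphocytes and innate cells made up 8 of the genes, and 4 of these were at least 2 lower also with normexp. Cd244a, the SLAM family receptor 2B4 of NK and T cells, stood at 3.07, 3.34 and 3.75 on control arrays 1 to 3 and 0.60, 0.45 and 1.05 on Ebf1 arrays 1 to 3 (chr1:173513231-173513290 in mm9). The groups were 2.03 apart at their nearest arrays, and the difference was -2.69 ± 0.23 (SE), or 6.44-fold. Both other probes of Cd244a met the rule on their own, with differences of -2.44 and -2.19, the first above background on 2 Ebf1 arrays. Pdcd1, which encodes the inhibitory receptor PD-1, stood at 1.44, 1.42 and 1.29 on control arrays 1 to 3 and -1.63, -1.0 and -1.48 on Ebf1 arrays 1 to 3 (chr1:95935064-95935123 in mm9), a difference of -2.75 ± 0.19 (SE). Its control arrays agreed within an SD of 0.08 (n = 3), and its normexp difference was -2.30. Ctla4, an inhibitory receptor of T cells, stood at -3.10, -2.61 and -2.92 with the control virus and -5.26, -6.31 and -5.56 with the Ebf1 virus, and was above background on no Ebf1 array, so it was at least 4.81-fold lower, and its normexp difference was -0.59.

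Il1rl2 encodes the receptor chain for interleukin 36, and Il18r1 the ligand-binding chain of the interleukin 18 receptor. The probes representing both were above background in every sample. Il1rl2 stood at 1.38, 1.77 and 1.51 with the control virus and -0.71, -1.40 and -1.06 with the Ebf1 virus, a difference of -2.61 ± 0.21 (SE). A second Il1rl2 probe was above background on no array, so it neither repeats this fall nor measures its absence. Il18r1 stood at 3.89, 4.25 and 4.39 with the control virus and 1.51, 2.3 and 2.39 with the Ebf1 virus, a difference of -2.11 ± 0.26 (SE). Ebf1 arrays 2 and 3 carried more Il18r1 than Ebf1 array 1, but all lay at least 1.5 below the lowest control array. Jaml, an adhesion receptor of leukocytes, stood at -0.75, -0.64 and -0.27 with the control virus and -3.73, -2.98 and -2.57 with the Ebf1 virus (-2.55), and its other probe gave -2.68 but was above background on no Ebf1 array. Mrc1, the macrophage mannose receptor, stood at -2.33, -2.11 and -1.99 with the control virus and -4.69, -5.44 and -4.33 with the Ebf1 virus (-2.67, normexp -0.85) and was measurable on 2 Ebf1 arrays. Tcrb-J, the array's name for a transcript of the T cell receptor beta joining region, differed by -2.30 on a probe seen on 1 Ebf1 array and by -1.90 on a second probe seen on all 6 arrays.

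**Figure D3:**
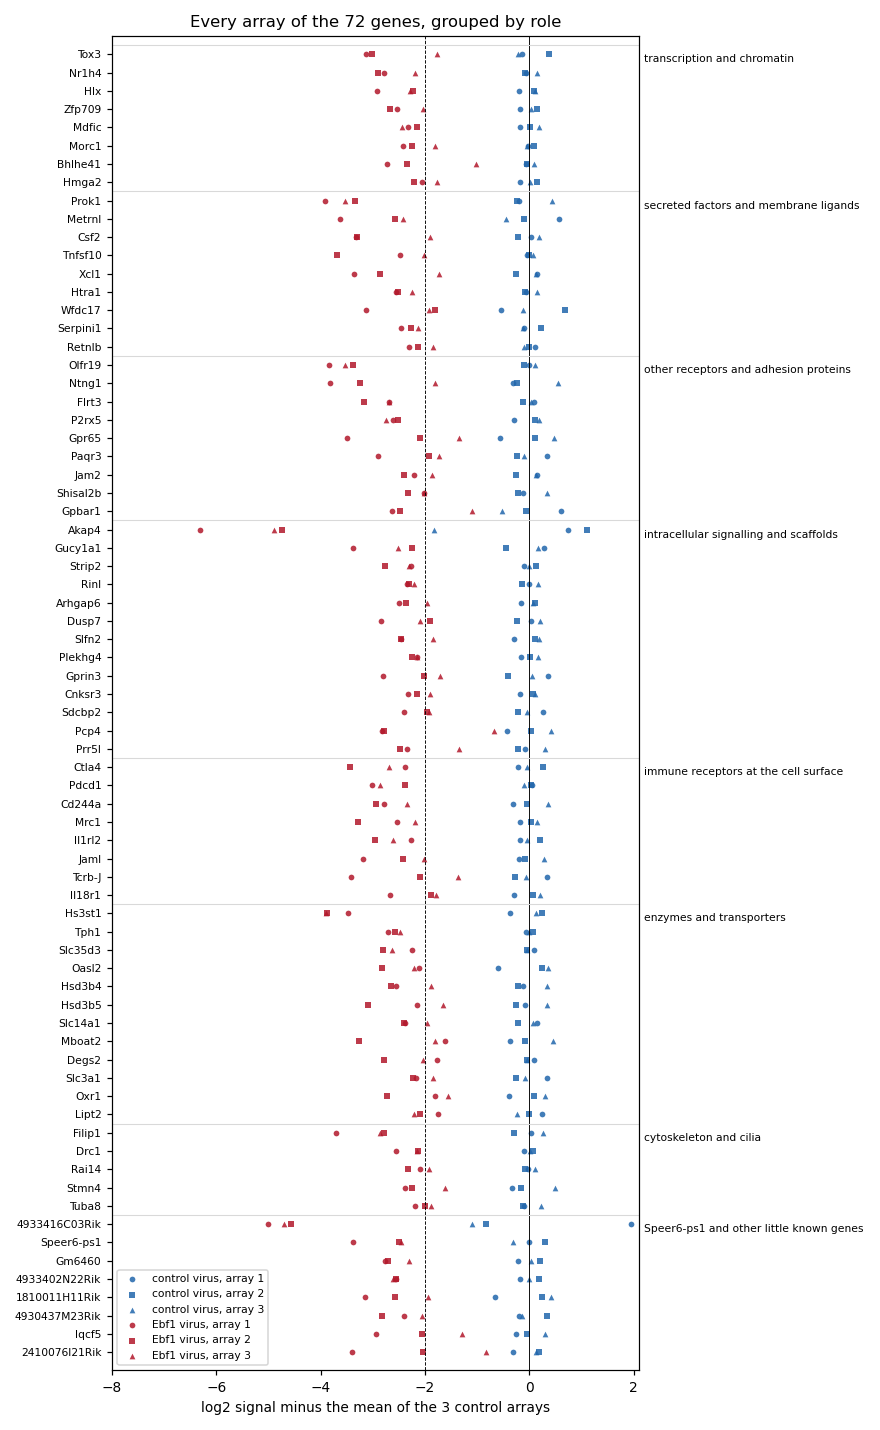
Log2 signal of each array minus the mean of the gene's 3 control arrays (horizontal), for all 72 genes grouped by role (vertical); blue symbols are control arrays and red symbols Ebf1 arrays, with the symbol shape giving the replicate number. The dashed line marks -2; the red and blue symbols of a gene do not overlap because the rule asked for that, the gap between them runs from 0.25 (Pcp4) to 3.46 (4933416C03Rik), and Ebf1 array 3 is the highest red symbol in 46 of the 72 genes.

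Partners of the genes were called at shares near the background. A list of 67 partner genes (receptor chains, ligands, subunits and nearest family members of the 72) was drawn up after the 72 genes were known and before the partners' values were read. Of the 64 on the array, 44 could be tested. In limma 7 of these were lower (15.9%, against 11.3% of all named genes) and 5 were higher (11.4%, against 13.3%), and the median difference was 0.10. Il18, the ligand of the Il18r1 chain, rose by 1.95 ± 0.14 (SE, limma adjusted p = 6.08e-05): it stood at -0.59, -0.56 and -0.78 with the control virus and 1.30, 1.27 and 1.34 with the Ebf1 virus. Il18rap, the second chain of that receptor, differed by -0.42 ± 0.23 (SE, limma adjusted p = 0.229). Il1rap, the second chain used with Il1rl2, fell by 0.78 (limma adjusted p = 0.0217), although its normexp difference was -0.29. Cd28, the activating receptor that shares ligands with Ctla4, differed by 0.41 ± 0.16 (SE, limma adjusted p = 0.102), and Icos, of the same family, fell by 0.73 (limma adjusted p = 0.0202). Ptpn11, a phosphatase recruited by PD-1, fell by 0.72 (limma adjusted p = 0.0121), while Ptpn6 differed by 0.35 (limma adjusted p = 0.108). For Cd244a, the ligand Cd48 differed by -0.56 (limma adjusted p = 0.0738), and the related receptor Ly9 by 0.09 (limma adjusted p = 0.763). The PD-1 ligand Cd274 differed by 0.11 (limma adjusted p = 0.804).

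Among secreted factors and membrane ligands, 9 genes were lower, with a median of -2.65, but the probes representing 3 of them were dim on every Ebf1 array. Csf2, the cytokine GM-CSF, stood at -2.34, -2.58 and -2.19 with the control virus and -5.69, -5.67 and -4.27 with the Ebf1 virus, a difference of -2.84 ± 0.37 (SE), and was above background on 1 Ebf1 array. Xcl1, a chemokine of NK cells and activated T cells, stood at -1.95, -2.35 and -1.97 with the control virus and -5.45, -4.95 and -3.81 with the Ebf1 virus (-2.65 ± 0.38 SE). Tnfsf10, the death ligand TRAIL, stood at -1.64, -1.60 and -1.53 with the control virus and -4.06, -5.29 and -3.61 with the Ebf1 virus (-2.73 ± 0.39 SE). The normexp differences of these cytokine genes were -0.77, -0.81 and -1.03, so the size of each fall depends on how background is treated. Their receptors in the partner list did not pass the test: Csf2ra differed by 0.35 (limma adjusted p = 0.177), Csf2rb by 0.41 (limma adjusted p = 0.12), Xcr1 by 0.43 (limma adjusted p = 0.215) and Tnfrsf10b by 0.08 (limma adjusted p = 0.73). Htra1, a secreted serine protease, was above background on all 6 arrays and had a similar difference under normexp (-2.44 and -2.15). Serpini1, the protease inhibitor neuroserpin (-2.28), and Retnlb, a resistin-like secreted protein (-2.10), were measured on all 6 arrays. Metrnl, a secreted protein related to meteorin, was at least 4.6-fold lower on the probe that met the rule. That probe stood at -2.44, -3.11 and -3.46 with the control virus and -6.62, -5.57 and -5.42 with the Ebf1 virus. A brighter Metrnl probe, above background on all 6 arrays, differed by only -1.47. Prok1, a prokineticin, and Wfdc17 were at least 2.98-fold and at least 2.95-fold lower on the probes that met the rule. A second Prok1 probe, above background on 2 Ebf1 arrays and on 0 control arrays, differed by 0.22, so the probes of Prok1 disagree.

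Other receptors and adhesion proteins made up 9 genes. P2rx5, an ion channel gated by extracellular ATP, stood at -0.25, 0.14 and 0.24 with the control virus and -2.57, -2.47 and -2.70 with the Ebf1 virus (-2.62 ± 0.17 SE). Its relatives differed in direction: P2rx1 rose by 1.74 (limma adjusted p = 0.0011), P2rx4 differed by 0.21 (limma adjusted p = 0.302), and P2rx7 fell by 0.97 (limma adjusted p = 0.021) on a probe seen on 1 Ebf1 array. Ntng1, a membrane-anchored netrin, stood at -1.12, -1.05 and -0.26 with the control virus and -4.64, -4.05 and -2.61 with the Ebf1 virus (-2.95 ± 0.50 SE), with Ebf1 array 3 well above the other Ebf1 arrays. A second Ntng1 probe, above background on 1 Ebf1 array, gave -3.47 (normexp -0.71), while the gene's remaining probes were above background on no array. Flrt3, a leucine-rich repeat adhesion protein, stood at -1.96, -2.18 and -2.04 with the control virus and -4.75, -5.24 and -4.76 with the Ebf1 virus (-2.85 ± 0.18 SE), whereas Flrt1 was at least 2.58-fold higher (limma adjusted p = 0.00112). Jam2, a junctional adhesion molecule, differed by -2.16, and its partner Jam3 was at least 1.78-fold higher (limma adjusted p = 0.0373). Shisal2b stood at -3.59, -3.69 and -3.14 with the control virus and -5.49, -5.79 and -5.49 with the Ebf1 virus and was at least 3.33-fold lower, and Gpr65, a proton-sensing receptor of leukocytes, was at least 3.14-fold lower, from -3.99, -3.33 and -2.96 with the control virus and -6.92, -5.52 and -4.78 with the Ebf1 virus. Without Ebf1 array 1 the bound for Gpr65 was 2.78-fold. Paqr3 differed by -2.18, and the olfactory receptor Olfr19 was at least 2.47-fold lower.

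Transcription and chromatin genes numbered 8. Nr1h4, the nuclear bile acid receptor FXR, stood at 0.48, 0.46 and 0.69 with the control virus and -2.24, -2.36 and -1.66 with the Ebf1 virus (-2.63 ± 0.21 SE, normexp -1.91). The membrane bile acid receptor Gpbar1 was also in the set, at -2.07, but it was measurable on 1 Ebf1 array and its normexp difference was -0.37. Rxra, the partner with which Nr1h4 binds DNA, differed by 0.33 (limma adjusted p = 0.349), and Nr0b2, a target of Nr1h4 in liver, by -1.03 (limma adjusted p = 0.0805). Hlx, a homeobox factor of haematopoietic cells, differed by -2.48, Zfp709, a zinc finger protein, by -2.42 and Morc1, a chromatin protein of the germ line, by -2.16. Mdfic, a modulator of transcription factors, stood at -1.69, -1.49 and -1.33 with the control virus and -3.83, -3.67 and -3.96 with the Ebf1 virus (-2.31). A second Mdfic probe, above background on 2 Ebf1 arrays, gave -2.58. Bhlhe41, a basic helix-loop-helix repressor, differed by -2.03 ± 0.40 (SE), while its closest relative Bhlhe40 rose by 1.43 (limma adjusted p = 0.00509). Hmga2, an architectural chromatin protein of stem cells, stood at -2.53, -2.20 and -2.34 with the control virus and -4.41, -4.57 and -4.13 with the Ebf1 virus (-2.01) on the probe that met the rule, and a brighter probe gave -2.0. Its relative Hmga1 differed by -0.06 (limma adjusted p = 0.835). Tox3 was at least 1.99-fold lower, the smallest bound of the set, and its relative Tox fell by 1.53 (limma adjusted p = 0.00455), but Tox4 differed by -0.21 (limma adjusted p = 0.435).

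Of the 13 genes of intracellular signalling, 8 had a control level above 0. Gucy1a1, the alpha subunit of soluble guanylate cyclase, stood at 0.65, -0.09 and 0.54 with the control virus and -3.02, -1.87 and -2.14 with the Ebf1 virus (-2.71 ± 0.33 SE). Its 2 other probes met the rule too, at -2.38 and at -2.14, the latter above background on 1 Ebf1 array. Gucy1b1, which encodes the beta subunit of the same enzyme, was not above background on all arrays of either group. Rinl, a Ras and Rab interactor-like protein, stood at 2.67, 2.54 and 2.84 with the control virus and 0.34, 0.38 and 0.46 with the Ebf1 virus (-2.29 ± 0.14 SE), with an SD of 0.07 over the Ebf1 arrays and with other probes at -2.25 and -2.21. Cnksr3, a scaffold protein, stood at 1.58, 1.84 and 1.87 with the control virus and -0.56, -0.39 and -0.15 with the Ebf1 virus (-2.13 ± 0.17 SE), with other probes at -2.15 and -1.93. Dusp7, a phosphatase that inactivates ERK kinases, differed by -2.28 ± 0.26 (SE), and its relative Dusp6 fell by 0.84 (limma adjusted p = 0.00933). Arhgap6 differed by -2.28 from the processed signal and by -2.29 with normexp. Slfn2, a Schlafen protein of lymphocytes and myeloid cells, differed by -2.26, and none of the 3 other Schlafen genes tested passed (Slfn3 -0.60, Slfn8 0.66, Slfn9 -0.08). Strip2, Plekhg4 and Gprin3 differed by -2.44, -2.19 and -2.18, and a second Strip2 probe, dim on every Ebf1 array, by -1.34. The regulators Sdcbp2, Pcp4 and Prr5l differed by -2.10, -2.09 and -2.06, and Pcp4 and Prr5l were above background on 1 Ebf1 array each. The Pcp4 difference was -2.80 without Ebf1 array 3. Akap4, an A-kinase anchoring protein known from sperm, stood at -0.61, -0.25 and -3.17 with the control virus and -7.66, -6.08 and -6.23 with the Ebf1 virus. It was at least 14.5-fold lower, but control array 3 lay over 2 below the other control arrays, and without it the bound was 27.4-fold.

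Enzymes and transporters formed a group of 12. Hs3st1, a heparan sulfate sulfotransferase, stood at -2.14, -1.53 and -1.65 with the control virus and -5.24, -5.65 and -5.66 with the Ebf1 virus and showed the largest fall among genes seen on at least 1 Ebf1 array, -3.75 ± 0.21 (SE), although its normexp difference was -1.20. Tph1, which makes the rate-limiting step of serotonin synthesis outside the brain, stood at 2.45, 2.58 and 2.50 with the control virus and -0.20, -0.06 and 0.03 with the Ebf1 virus (-2.59 ± 0.14 SE, 6.01-fold). A second Tph1 probe, above background on 2 Ebf1 arrays, gave -2.54. Ddc, the next enzyme of the pathway, differed by 0.09 (limma adjusted p = 0.811). Hsd3b4 and Hsd3b5, of the 3-beta-hydroxysteroid dehydrogenase family, were both measured on all 6 arrays. Hsd3b4 stood at 0.89, 0.81 and 1.35 with the control virus and -1.54, -1.63 and -0.86 with the Ebf1 virus (-2.36). Hsd3b5 stood at -1.58, -1.75 and -1.17 with the control virus and -3.66, -4.59 and -3.15 with the Ebf1 virus (-2.30). As members of a family of similar genes they may share signal, though their probes have no run of 12 or more bases in common. Slc35d3, a nucleotide sugar transporter family gene, stood at 0.16, 0.03 and 0.03 with the control virus and -2.18, -2.73 and -2.55 with the Ebf1 virus (-2.56). Slc14a1, a urea transporter, stood at 3.43, 3.08 and 3.37 with the control virus and 0.92, 0.89 and 1.33 with the Ebf1 virus (-2.25). Slc3a1, a subunit of an amino acid transporter, stood at -1.93, -2.52 and -2.34 with the control virus and -4.43, -4.48 and -4.12 with the Ebf1 virus (-2.08). In none of the transporters did an Ebf1 array come within 1 of a control array. Lipt2, a lipoyl transferase, stood at 3.13, 2.88 and 2.66 with the control virus and 1.14, 0.80 and 0.68 with the Ebf1 virus (-2.02). Oasl2, an interferon-induced gene, differed by -2.39 and Degs2, a sphingolipid desaturase, by -2.20, while Mboat2, an acyltransferase of lipids, was at least 2.87-fold lower on the probe that met the rule. Another Mboat2 probe, above background on 2 arrays of each group, differed by only -0.41. Oxr1, an oxidation resistance gene, is in the set through a probe at chr15:41658390-41658449 (mm9), which was dim on every Ebf1 array. Its 2 brighter probes, above background on all 6 arrays, differed by -0.69 and -0.59.

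The cytoskeleton and cilia group held 5 genes. Filip1, a filamin-binding protein, stood at -0.44, -0.78 and -0.21 with the control virus and -4.19, -3.27 and -3.34 with the Ebf1 virus (-3.12 ± 0.28 SE). Drc1, a part of the dynein regulatory complex of motile cilia, stood at 5.26, 5.44 and 5.38 with the control virus and 2.81, 3.22 and 3.20 with the Ebf1 virus (-2.28 ± 0.16 SE). Tuba8, an alpha tubulin, stood at -0.67, -0.69 and -0.35 with the control virus and -2.77, -2.56 and -2.45 with the Ebf1 virus (-2.02), and Stmn4 and Rai14 differed by -2.08 and -2.11. Among 8 genes of which less is known, Speer6-ps1 stood at -0.71, -0.39 and -1.01 with the control virus and -4.08, -3.20 and -3.17 with the Ebf1 virus (-2.78 ± 0.28 SE). Gm6460 and 4933402N22Rik, both on chromosome 5, differed by -2.59 and -2.57, and each was above background on all 6 arrays. The genes 4930437M23Rik, Iqcf5 and 2410076I21Rik differed by -2.43, -2.10 and -2.09, and 1810011H11Rik was at least 3.14-fold lower. For 2410076I21Rik the difference was -1.44 without Ebf1 array 1 and -2.72 without Ebf1 array 3. The gene 4933416C03Rik was at least 5.49-fold lower, from -0.80, -3.59 and -3.86 with the control virus and -7.75, -7.31 and -7.45 with the Ebf1 virus, with control array 1 far above the other control arrays; without that array the bound was 2.8-fold.

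**Figure D4:**
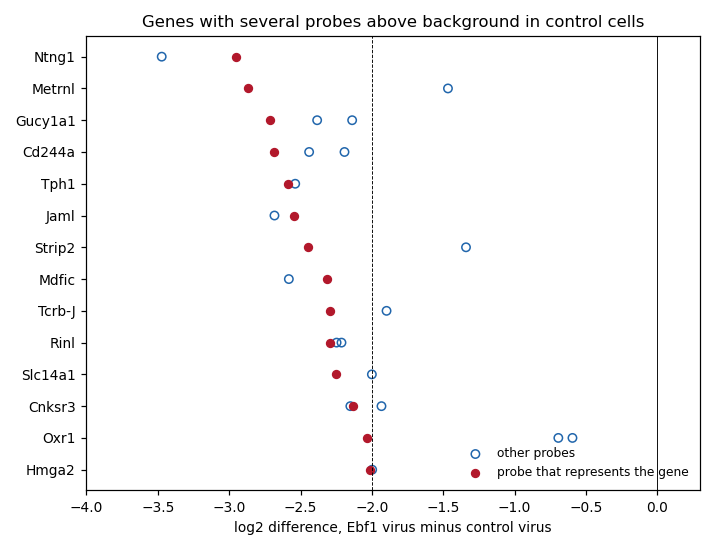
Log2 difference (Ebf1 virus minus control virus) of every probe above background on all control arrays, for the 14 genes with several such probes; the filled circle is the probe that represents the gene and open circles are the others. The dashed line marks -2; 17 of the 19 open circles are at -1 or lower, and the exceptions are both of Oxr1.

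How far separate probes bear out a gene's fall could be asked for few of the genes. Of the 72, 45 had only 1 probe on the array, and 13 more had others that were not above background on all control arrays. The remaining 14 genes had 19 further measured probes, whose differences ran from -3.47 to -0.59 with a median of -2.15. All 19 were below 0, among them those of Metrnl (-1.47) and Strip2 (-1.34), and 11 of them, in 8 genes, met the rule themselves (Cd244a, Gucy1a1, Rinl, Tph1, Jaml, Ntng1, Mdfic and Cnksr3). Some of the 11 were not above background on every Ebf1 array. Such a probe was seen on 0 Ebf1 arrays for Jaml, on 1 for Ntng1 and Gucy1a1, and on 2 for Cd244a, Tph1 and Mdfic. The normexp differences of these probes ran from -0.86 (Mdfic) to -0.53 (Gucy1a1). Of the 21 further probes that were not above background on all control arrays, 3 were above background on at least 1 Ebf1 array: those of Mboat2 (-0.41), Rai14 (-0.62) and Prok1 (0.22), each a smaller fall than on the representing probe or none. Between genes, the longest run of bases shared by any probes was 14, between a second probe of Gucy1a1 and that of Wfdc17. The array files give probe positions on mm9 but not whether a probe lies in an exon, intron or UTR, which was not read here.

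Some of the genes lie near each other, though often with other genes between them. Within 200 kb of the probe on mm9, 12 of the 72 genes (16.7%) had another gene that met the same value rule, counting genes left out by name, whereas 236 of 10997 other genes (2.15%) had such a neighbour. They form 7 pairs, 5 of them between genes of the set. Hsd3b4 and Hsd3b5, which as similar genes may share signal, are among these pairs, so the falls counted may not all be independent. Whether 4930437M23Rik and Gm6460, another of the pairs, or 4933402N22Rik on the same chromosome share signal was not determined. In the interleukin 1 receptor cluster of chromosome 1, Il1rl2 (chr1:40424245-40424304) and Il18r1 (chr1:40557541-40557600) are 133 kb apart. Il1rl1, which lies between them, differed by 0.48 ± 0.33 (SE, limma adjusted p = 0.341). Il1r1 on one side fell by 1.09 (limma adjusted p = 0.0339), and Il18rap on the other differed by -0.42 (limma adjusted p = 0.229), so the cluster did not go down as a block. On chromosome 16, Morc1 (start 48624427) and Retnlb (start 48818874) are 194 kb apart, and Trat1, a T cell receptor adaptor between them, fell by 1.91 (limma adjusted p = 0.000261), while Dzip3 on the far side of Retnlb differed by -0.02 (limma adjusted p = 0.965).

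On chromosome 11, P2rx5 is 26.6 kb from Itgae, the integrin CD103, which was left out by name and differed by -2.33. Haspin, whose probe lies past that of Itgae, fell by 1.25 (limma adjusted p = 0.00148). Only probe positions were compared, not the extents of the genes. Tax1bp3, with its probe on the other side of P2rx5, fell by 1.02 (limma adjusted p = 0.0023), while Ctns differed by 0.42 (limma adjusted p = 0.163). On chromosome 7, Lipt2 is 23.8 kb from Kcne3, a potassium channel subunit left out by name, which differed by -3.19 on a probe seen on 1 Ebf1 array. Pgm2l1, 114 kb from Lipt2, fell by 1.67 (limma adjusted p = 0.0014). The other pairs were Dusp7 with Iqcf5 (140 kb), Hsd3b4 with Hsd3b5 (120 kb) and 4930437M23Rik with Gm6460 (111 kb). The tested genes with probes between those of Dusp7 and Iqcf5 differed by -0.99 (Rrp9) to 0.90 (Pcbp4). Of the unnamed probes that met the value rule, 1 lay 45.0 kb from Filip1 and 1 lay 7.75 kb from Cd244a; whether they report the same transcripts was not determined.

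**Figure D5:**
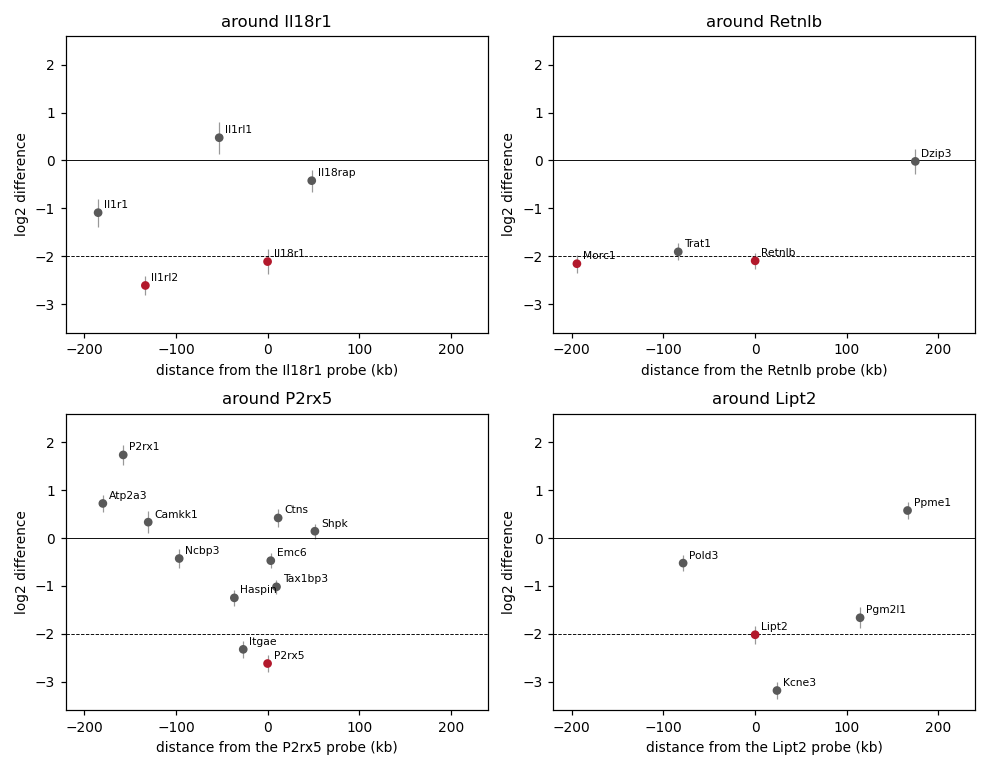
Log2 difference (Ebf1 virus minus control virus) with its SE of every tested named gene within 200 kb of Il18r1, Retnlb, P2rx5 and Lipt2, against the distance in kb between probe starts on mm9; red points are genes of the set and grey points other genes, including Itgae and Kcne3, which were left out by name. Genes at or below -2 stand beside genes near or above 0 in each panel, such as Il1rl1 at 0.48 between Il1rl2 and Il18r1.

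Marker lists of the cell types that the sorted population could hold, the feeder cells included, were counted in the same fit, against backgrounds of 11.3% lower and 13.3% higher. Of 15 T cell markers tested out of 18 on the array, 4 fell (Trat1 -1.91, Cd3d -1.76, Cd2 -1.55 and Cd3g -1.53) and Tcf7 rose by 1.61 in limma, with a list median of -0.11. Cd4, Cd8a and Bcl11b, which mark later T cells, were not above background on all arrays of either group. The summed T cell marker signal (log2) was 5.11 to 5.27 on control arrays and 4.96 to 5.07 on Ebf1 arrays. Of 10 NK and innate lymphoid markers tested out of 17, 4 fell in limma (Klrd1 -1.86, Tox -1.53, Nkg7 -1.33, and Xcl1, which is in the set), while Gzma and Tbx21 rose by 5.36 and 3.55. The list's median was -0.80, and its summed signal was 5.24 to 5.73 on control arrays and 6.09 to 6.39 on Ebf1 arrays. Ncr1, Klrb1c, Klrk1 and Ifng were not above background on all arrays of either group.

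Myeloid markers were divided in limma, with 4 of 12 tested lower, among them Mpo (-1.77), and 4 higher, among them Csf1r (1.69). The list median was 0.15, and the summed signal was 6.0 to 6.15 against 6.12 to 6.41. Of 10 dendritic cell markers tested, 2 fell and 3 rose in limma (median 0.45, summed signal 6.68 to 6.97 against 7.95 to 8.05). Batf3 (-1.62) and Siglech (-1.03) fell, and Ly6d (2.62), Ly6c2 (1.44) and Irf8 (0.47) rose, so the markers did not move together. Stem and progenitor genes leaned lower in limma, 6 of 14 tested against 2 higher (list median -0.49, summed signal 8.04 to 8.53 against 7.03 to 7.31). Kit differed by -1.82 and Tal1 by -1.76, while the 2 that rose were Ly6a (1.52) and Lmo2 (1.52). Of 17 B lineage genes tested, 14 rose and 1 fell in limma (median 2.08, summed signal 4.07 to 4.10 against 9.18 to 9.32). Of 14 stromal feeder markers tested, 3 rose in limma (median 0.55, summed signal 5.41 to 5.47 against 5.64 to 5.93). That stromal count was 6 with normexp and with trend and robust options, and 1 with slide as a fixed block or without any 1 of the Ebf1 arrays. It was 0 in limma with median scaling (1 at an unadjusted p under 0.05), with no filter on dim probes (6), without control array 1 (4) and without control array 3 (5). Myeloid markers called higher numbered 1 with normexp or with slide as a fixed block, and those called lower numbered 2 without control array 2, without control array 3 or with no filter. With slide as a fixed block 2 T cell markers fell and 8 B lineage genes rose. The part of any of these cell types in the falls of the 72 genes was not tested. Xcl1 was the only one of the 72 genes on any of these lists.

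The arrays lay on 3 slides, and only slide 2 held both groups, as control array 2 and Ebf1 array 1. Within that slide the differences ran from -7.41 to -1.55 with a median of -2.63, and 64 were at least 2 lower. That all 72 lay below 0 follows from the rule, which asked every Ebf1 array to lie below every control array. These are single arrays, so the values carry no error. Ebf1 arrays spread more than control arrays in 56 of the 72 genes. Ebf1 array 3, which had the largest share of features above background (60.1%), was the highest of the Ebf1 arrays in 46 genes, and Ebf1 array 1 was the lowest in 41. These genes were chosen for low values on the Ebf1 arrays, and the probes representing 26 of them were not above background on every Ebf1 array. The same counts were not made over all genes, so they do not describe the arrays in general.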

How the data were processed

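Cy3-labelled RNA of the sorted cells was read on 6 Agilent arrays of 1 colour. The deposited values are linear spot intensities that, per the file headers, come from Agilent Feature Extraction 10.5.1.1, a program also named in the submitters' processing notes. It subtracts background within an array, and the headers record no normalisation between arrays. A deposited table of intensities equalled the processed signal of the array files.

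Processed signals were put on a log2 scale, and each array's 75th percentile over 43379 non-control features was subtracted. Outlier spots, of which an array had 65 to 116, were dropped and spots of a probe were averaged, giving 41174 probes. No spot was saturated. Symbols were updated through the probe accession with a RefSeq table for GRCm38.p6, which matched 25097 probes (61.0%). Positions are those of mm9 in the files, and promoters come from RefSeq on GRCm38.p6. A gene was represented by its brightest probe that met the rule, or for other genes its brightest tested probe.

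Probes above background on all 3 arrays of at least 1 group were tested with limma 3.58.1 (lmFit and eBayes, R 4.3.3, data.table (1.17.8)), two-sided, with Benjamini-Hochberg adjustment at 0.05. This gave the SE of each difference. The fit was tested on simulated data. For probes dim on all Ebf1 arrays, the bound sets the control mean against Ebf1 values, with those under each array's lowest signal above background raised to it. Dim values over that signal were kept, so the bounds are approximate. Summaries and plots were made with Python 3.11.15, pandas 2.3.3, numpy 2.4.6 and matplotlib 3.10.9.

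The 72 genes, the marker lists, the motifs and the tests were chosen with earlier results of these data known. Roles were assigned, and the partner list was written, after the values of the 72 genes had been seen. Values on every array are given for the 12 largest falls among genes seen on at least 1 Ebf1 array, the 6 largest bounds, genes on a marker list, genes with a second probe that met the rule, genes that share a symbol stem, and the 3 genes on each side of the threshold. Other genes with values on every array, and the partners and neighbours named, were chosen after their values were seen. Alternatives were normexp, quantile and median normalisation, the deposited table, the mean of a gene's probes, slide and replicate blocks, other filters and thresholds, trend and robust options, and leaving out each array.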

Additional observations from a re-analysis of the deposited data

How the results depend on the processing

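Over 13 alternatives (background correction, normalisation, blocks, probe choice and leaving out 1 array), 41 of the 72 genes were at least 1 lower under every one. For the blocks, the deposited table and leaving out an array, the rule itself fixed the sign. The smallest fall was -0.26 with normexp, -1.96 with quantile normalisation and -1.11 with the mean of a gene's tested probes. The number of genes that met the rule, 72 in the main setting, was 11 with normexp (all 11 among the 72), 120 with median scaling, 127 with slide as a fixed block, which rests on 1 array of each group, 179 at a threshold of 1.5 and 29 at a threshold of 2.5. It was 55 to 106 with 1 array left out, lowest without Ebf1 array 1 and highest without control array 3. Of the 72 genes, 54 met it without Ebf1 array 1 and 64 without control array 3. With at least 1 Ebf1 array asked to be above background it was 59. It was 58 with Ebf1 values raised to each array's lowest signal above background.

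Of the probes called by limma, 2085 lower and 2349 higher, the lower count was 898 with slide as a fixed block, 655 with no filter on dim probes and 1008 to 1700 with 1 array left out. The higher count was 1256 with median scaling, 1269 with slide as a fixed block, 1341 with no filter and 1622 to 2111 with 1 array left out. Genes of the marker lists called higher numbered 29, and 16 with slide as a fixed block. Causes were not tested.

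Same-numbered arrays did not deviate together from their group means (correlations -0.17, -0.25 and 0.10). With 3 arrays in each group this cannot decide whether the numbers pair the samples, and the main fit did not pair them. With the replicate number as a block, 1233 probes were called lower and 1862 higher, the rule took the same 72 genes, and 21 genes of the lists were called lower and 26 higher. Of the 3 numbers, 1 had its best match in the array of the same number.

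Signal over background is the main limit: the probes representing 26 of the 72 genes were not above background on every Ebf1 array, and the 3 arrays of a group limit the precision of each difference.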
